A study of Caenorhabditis elegans with 2 samples.

Results

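The dosage compensation complex of Caenorhabditis elegans is the protein assembly that lowers transcription from both X chromosomes of XX animals, and its 10 genes are described here by where the chromatin remodeller ISW-1 lay at and inside them. The 10 genes were taken by name as subunits of the complex (sdc-1, sdc-2, sdc-3, dpy-21, dpy-26, dpy-27, dpy-28, dpy-30, mix-1 and capg-1), out of 19973 annotated protein-coding genes. ISW-1 was precipitated with an antibody against GFP from whole L1 larvae aged 6 hours that had been synchronised by bleaching and starvation. All animals were of strain OP181, which carries the transgene wgIs181 (isw-1::TY1 EGFP 3xFLAG with unc-119(+)) over the unc-119(ed3) allele. There were 2 biological replicates of this 1 condition and no contrasting group, so the genes were set beside all other genes and the replicates beside each other. Only the tagged protein was read, whole larvae mix all tissues, and the labels give no sex for the animals.

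ISW-1 is the ATPase of ISWI-type remodelling complexes, which slide and space nucleosomes. In the dosage compensation complex, SDC-2 is the protein that starts assembly on X in XX embryos, and SDC-3 and DPY-30 help to load the rest, with SDC-1 as a further zinc finger partner. The core is a condensin: DPY-27 and MIX-1 are its pair of SMC ATPases, and DPY-26, DPY-28 and CAPG-1 are its other subunits. MIX-1, DPY-26, DPY-28 and CAPG-1 also serve in condensin I, where SMC-4 stands in place of DPY-27. DPY-21 is a demethylase of histone H4 lysine 20, and DPY-30 is also a subunit of the COMPASS histone H3 lysine 4 methyltransferases.

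ISW-1 lay in the promoter window of 2 of the 10 genes, dpy-27 and dpy-30, and inside 1, mix-1. The window runs from 1000 bp upstream to 500 bp downstream of a gene's outermost annotated start, and a gene was counted when the summit of a peak, its highest point, fell inside it. In the conservative list, drawn from both replicates, 20% of the complex's genes had such a summit, against 10% of all protein-coding genes (1997 of 19973). With so few genes 1 more or fewer moves that share by 10 percentage points, and it is a description with no test. The 3 sites past the authors' threshold, and a weaker one below it at sdc-2, are shown here because the results turn on them. Each sequence is the 201 bases centred on the summit in the conservative lists, read 5′ to 3′ on the strand of the gene, in the ce11 build. They are the dpy-27 promoter (chrIII:3820266-3820466, minus strand), the dpy-30 promoter (chrV:12191033-12191233, plus strand), a site centred in an intron of mix-1 (chrII:10840190-10840390, plus strand) and the sdc-2 promoter (chrX:11522155-11522355, plus strand). The sequence named mix-1 intron begins in the exon before that intron, which starts at chrII:10840243. Capitals mark TCTCTC, the reverse complement of GAGAGA, at dpy-27 and sdc-2, TGCGTCTC at dpy-30 and GTTCGANNC in mix-1.
dpy-27 promoter: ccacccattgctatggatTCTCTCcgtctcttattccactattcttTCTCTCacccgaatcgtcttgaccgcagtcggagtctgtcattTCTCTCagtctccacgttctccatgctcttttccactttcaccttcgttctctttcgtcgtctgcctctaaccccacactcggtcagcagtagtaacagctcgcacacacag
dpy-30 promoter: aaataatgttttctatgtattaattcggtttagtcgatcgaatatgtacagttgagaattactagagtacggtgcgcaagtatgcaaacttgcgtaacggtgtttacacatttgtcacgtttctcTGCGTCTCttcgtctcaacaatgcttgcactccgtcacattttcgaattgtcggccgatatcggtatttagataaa
mix-1 intron: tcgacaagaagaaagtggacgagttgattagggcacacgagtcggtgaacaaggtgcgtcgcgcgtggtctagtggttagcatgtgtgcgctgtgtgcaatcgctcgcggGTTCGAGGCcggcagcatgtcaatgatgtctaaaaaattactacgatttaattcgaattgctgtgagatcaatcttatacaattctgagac
sdc-2 promoter: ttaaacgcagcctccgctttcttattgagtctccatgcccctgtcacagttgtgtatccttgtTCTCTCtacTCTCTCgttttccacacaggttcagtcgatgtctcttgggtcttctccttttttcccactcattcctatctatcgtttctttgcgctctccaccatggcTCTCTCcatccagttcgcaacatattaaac

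The data were 8 peak lists on ce11. They were a conservative thresholded list of 2143 peaks and another thresholded list of 2210, both from the 2 replicates together, thresholded lists of 2090 peaks for replicate 1 and 1756 for replicate 2, and the ranked list behind each, of 11169 to 31134 peaks. Each ranked peak carries an irreproducible discovery rate (IDR), a measure of how well a peak repeats between the sets compared, on which the authors' threshold was set. A rank given here is a peak's place by signal within its list, with 1 the highest, and is not a rank by IDR. Every thresholded peak had a global IDR of at most 0.00997. The signal of a peak is the authors' own value and is comparable only within a list. Read counts were not part of the lists, so sequencing depth is unknown.

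None of the 3 sdc genes had a summit past the threshold in its promoter window in any of the 4 thresholded lists, whereas dpy-30, whose product also helps to load the complex, had one in all 4 and is described further on. sdc-2 (WBGene00004746, chrX:11522707-11533450, plus strand), the XX-specific trigger of assembly, had a weak peak upstream of its start. Its summit lay 452 bp upstream in the conservative ranked list, with a signal of 64.7, rank 3280 of 11648 and a global IDR of 0.576. Replicate 2 placed it 428 bp upstream with a signal of 37.9 and an IDR of 0.221, and replicate 1 had no peak there in its ranked list. The site was thus listed in 1 of the 2 replicates and failed the threshold in both the joint list and replicate 2.

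sdc-1 (WBGene00004745, chrX:16275763-16282534, plus strand) had a weak promoter peak in each replicate and none in either joint list. The summit was 20 bp upstream in replicate 1, with a signal of 27.5 and an IDR of 0.744, and 322 bp upstream in replicate 2, with a signal of 19.0 and an IDR of 0.77. The replicates thus put it at different positions. A site near the end of sdc-1 repeated better in position, with summits at 6104 bp from the start in replicate 1 and 6177 bp in replicate 2. Yet this site stayed below the threshold in each replicate's own list (IDR 0.351 and 0.689). It also did so in the conservative ranked list (0.232) and the other joint ranked list (0.351). sdc-3 (WBGene00004747, chrV:15039148-15048207, minus strand) had no peak in its promoter window in any of the 8 lists. Inside it, replicate 1 listed 1 peak at 2054 bp and replicate 2 listed 1 at 6331 bp, which are different places.

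Among the 5 condensin subunits, dpy-27 alone had a promoter summit past the threshold, and mix-1 had a thresholded peak inside the gene. In the full conservative ranked list, in which 24.5% of all protein-coding genes had a promoter peak, 4 of the 5 had one. dpy-27 (WBGene00001086, chrIII:3813018-3819679, minus strand) encodes the SMC protein that distinguishes the dosage compensation condensin from condensin I. Its summit lay 687 bp upstream of the start in the conservative list, with a signal of 162 and rank 1283 of 2143. Replicate 1 placed the summit 663 bp upstream, with a signal of 118, rank 1119 of 2090 and an IDR of 8.59e-05. Replicate 2 placed it 683 bp upstream, with a signal of 42.4, rank 1898 of 31134 ranked peaks and an IDR of 0.0117. That value is just outside the threshold, so dpy-27 is in 3 of the 4 thresholded lists while all lists that hold the site put its summit within 24 bp. The position was far out for a promoter summit: 198 of the 1997 genes with one (9.915%) had theirs as far upstream or farther, and the median was 228 bp upstream. The upstream neighbour amx-1 runs the other way and its start is 2037 bp from the summit, so no other protein-coding gene shared it. An annotated non-coding RNA, R13G10.5 (chrIII:3820206-3820273, minus strand), starts 93 bp downstream of the summit.

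mix-1 (WBGene00003367, chrII:10824246-10841424, plus strand), which encodes the SMC protein common to the dosage compensation condensin and the other condensins, had a thresholded peak far inside the gene. The summit lay 16044 bp from the start in the conservative list, with a signal of 153 and rank 1361 of 2143. Replicate 1 gave 90.6 at the same base, rank 1472 of 2090, and replicate 2 gave 63.05 at 16020 bp, rank 1198 of 1756. The site passed in all 4 thresholded lists, with IDR values of 0.000333 in replicate 1 and 0.000634 in replicate 2. It falls in intron 13 of a gene with 15 exons, an intron of 224 bp (chrII:10840243-10840466), 1134 bp before the annotated end of mix-1. The start of an annotated small nucleolar RNA gene, M106.6 (chrII:10840317-10840391, plus strand), is 27 bp downstream of the summit. Of the 393 conservative summits inside genes and outside promoter windows, 21 (5.344%) lay in the window of a small nucleolar RNA gene.

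Such an inside summit was found in 1 of the 10 genes, against 1.68% of all protein-coding genes. Among genes of at least 5000 bp it was 1 of 9 of the complex's genes, against 7.21% of all. The start of mix-1 had a second, weaker peak. Its summit was 5 bp downstream of the start, in the 5′ UTR, with a signal of 79.5, rank 2595 of 11648 and an IDR of 0.0855 in the conservative ranked list. Replicate 1 gave 42.2 at 60 bp downstream with an IDR of 0.864, and replicate 2 gave 40.8 at 27 bp downstream with an IDR of 0.155. The divergent neighbour R06F6.12 begins only 165 bp away, and its window held the same summit. In the conservative ranked list this was the promoter peak of highest signal that failed the threshold among the 10 genes.

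dpy-26 and dpy-28 had weaker peaks at their starts. dpy-26 (WBGene00001085, chrIV:12445801-12451335, minus strand) had a summit 70 bp upstream with a signal of 62.7 and an IDR of 0.563 in the conservative ranked list, and an IDR of 0.0393 in the other ranked list. Replicate 1 listed it 85 bp upstream with a signal of 47.6 and an IDR of 0.197, and replicate 2 did not list it. A second peak in the dpy-26 window, in coding sequence, also failed the threshold. It lay 414 bp downstream in the other ranked list, with a signal of 51 and an IDR of 0.25. Replicate 1 had it 439 bp downstream, with a signal of 44.8 and an IDR of 0.729. dpy-28 (WBGene00001087, chrIII:10763131-10777076, plus strand) had a signal of 41.6, rank 8878 of 11648, 111 bp into the gene in its coding sequence. Replicate 1 gave 34.8 at 121 bp downstream, while replicate 2 gave 15.1 at 100 bp upstream. Those peaks overlapped, but their summits lay 221 bp apart. Inside dpy-28, in coding sequence, the summits of the replicates lay closer together. They were at 8227 bp in replicate 1 with a signal of 22.7 and at 8263 bp in replicate 2 with a signal of 29.2. This inside site had a signal of 50.4 at 8223 bp in the conservative ranked list, higher than at the start. It failed the threshold with an IDR of 0.623. capg-1 (WBGene00009254, chrI:7634492-7639785, minus strand) had no promoter peak in any list. Its only peak, in an intron 3998 bp from the start, had a signal of 38.2 in the conservative ranked list and 11.8 in replicate 2, at 93.1% and 93.5% of the way down those lists.

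dpy-30 passed in every list, and dpy-21 in none. dpy-30 (WBGene00001088, chrV:12191519-12192385, plus strand) is the shortest of the 10 genes and its product works in 2 complexes. Its summit lay 386 bp upstream of the start in the conservative list with a signal of 161, rank 1297 of 2143. Replicate 1 gave 105 at 377 bp upstream, rank 1265 of 2090, and replicate 2 gave 59.05 at 363 bp upstream, rank 1284 of 1756. The IDR was 0.000151 in replicate 1 and 0.000781 in replicate 2, and the summits of all 8 lists lay within 23 bp. In both replicates the peak stood below the middle of the thresholded list, and in the conservative list it ranked 1387th by signal among the 1997 genes with a promoter summit, next to dpy-27 at 1376th. Their median signal was 232, with quartiles of 147 and 390. The summit belonged to no other protein-coding gene's window, although rnp-1, next along the same strand, starts 1140 bp downstream of it. A non-coding RNA gene, ZK863.11 (chrV:12190700-12190785, plus strand), starts 433 bp upstream of it.

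dpy-21 (WBGene00001080, chrV:17936282-17949193, minus strand) had no promoter peak in any list, but its body held several weak ones. The conservative ranked list had 4 inside it, of signal 37.7 to 48.8, and each replicate had 5, of 23.1 to 28.4 in replicate 1 and 12 to 21.97 in replicate 2. That is 0.31 peaks per kb of dpy-21 in the conservative ranked list, against 0.0817 per kb over all protein-coding genes, and 0.387 per kb in each replicate, against 0.142 in replicate 1 and 0.257 in replicate 2. The other joint ranked list had 2 peaks inside it, or 0.155 per kb. In replicate 2 mix-1 (0.407 per kb) and sdc-2 (0.372 per kb) had densities close to that of dpy-21, and in replicate 1 dpy-28 had 0.287 per kb. The densities divide by full gene length but leave out peaks in the promoter window, which lowers them most for short genes. In the conservative ranked list 53.2% of genes of at least 5000 bp had a peak inside, against 17.9% of all genes. None of the peaks inside dpy-21 passed the threshold, and the map of summits shows that the 5 positions of replicate 1 and the 5 of replicate 2 did not coincide.

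**Figure D1:**
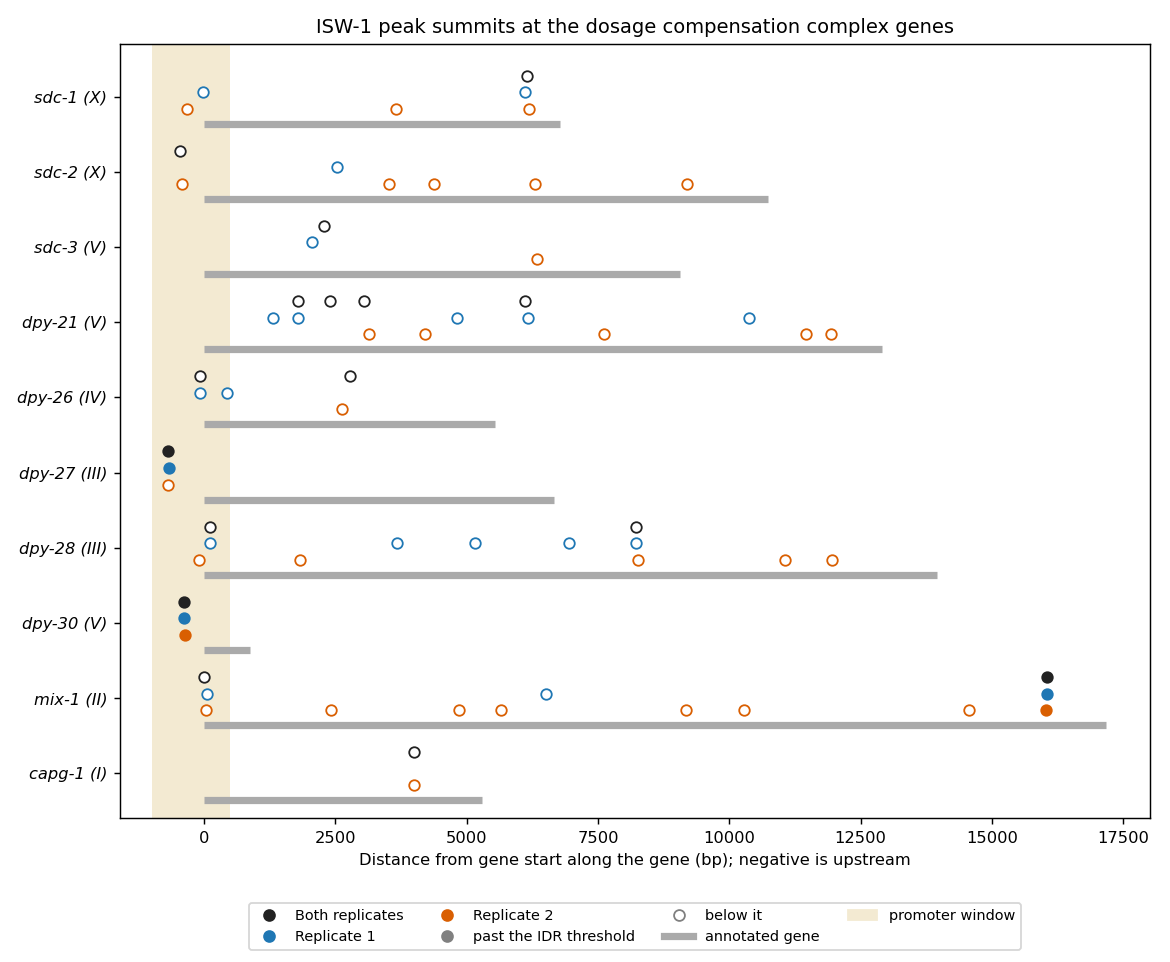
Summits of every peak at the 10 genes in the conservative ranked list of both replicates (black), replicate 1 (blue) and replicate 2 (orange), by distance in bp from the gene start; filled points passed the IDR threshold and the shaded band is the promoter window. Filled points stand at 3 genes only, 687 bp upstream of dpy-27, 386 bp upstream of dpy-30 and 16044 bp into mix-1, and open points are scattered through the bodies of the longer genes.

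Counted by list, the replicates differed by 1 gene past the threshold and reached the same number in their ranked lists. The promoter count was 2 of 10 in the other thresholded list, where the share of all genes was 10.2%, 2 in replicate 1 (9.82% of all genes) and 1, dpy-30, in replicate 2 (8.6%). In the full ranked lists it was 6 of 10 in each, against 24.5% of all genes in the conservative ranked list, 32.3% in replicate 1 and 44.9% in replicate 2. The 6 were not the same genes. dpy-27, dpy-28, dpy-30 and mix-1 were in all 4 ranked lists, sdc-1 in both replicates only, dpy-26 in replicate 1 and both joint lists, and sdc-2 in replicate 2 and both joint lists. sdc-3, dpy-21 and capg-1 were in none. Both X-linked genes, sdc-1 and sdc-2, lacked a thresholded summit, on a chromosome where 5.82% of genes had one, and 2 of the 8 autosomal genes had one, against 10.7% of autosomal genes.

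**Figure D2:**
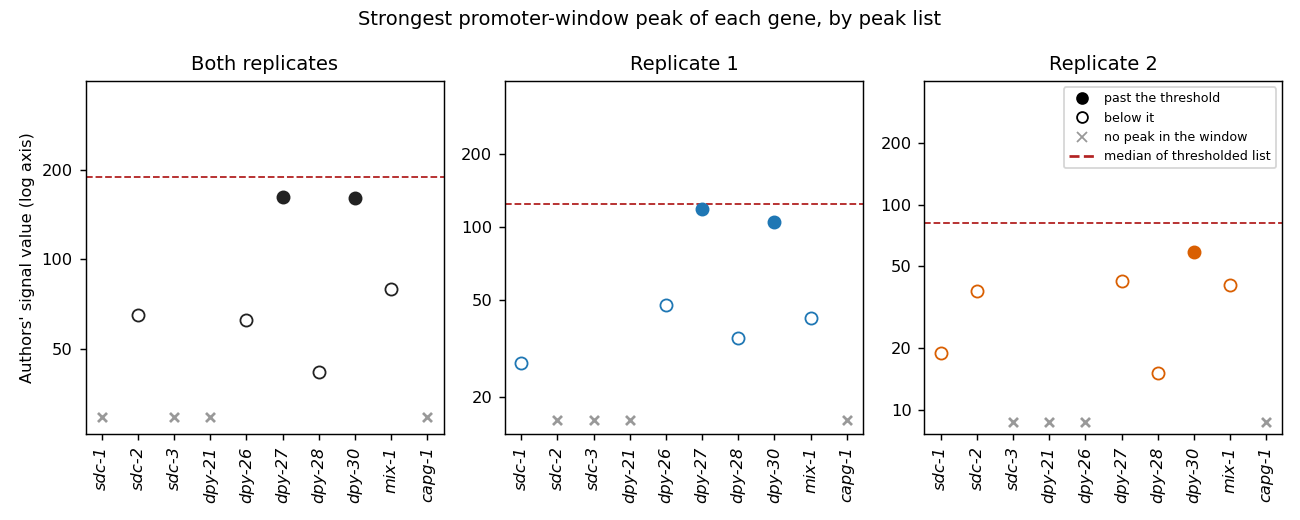
Highest signal (authors' value, log axis, arbitrary units) of a promoter-window peak at each gene in the conservative ranked list and in each replicate's ranked list; filled points passed the threshold, crosses mark no listed peak, and the dashed line is the median of the corresponding thresholded list. dpy-27 and dpy-30, at 162 and 161 in the joint list, stand above the other genes but under the median of 189.

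The 8 genes without a promoter summit lay 2265 to 65852 bp from the nearest thresholded one, with a median of 18234 bp. Over all 10 genes the median distance was 16734 bp, against 17737 bp over all protein-coding genes. Some of the nearest sites were much stronger than any at the genes themselves, and they stood at neighbours. The summit nearest to dpy-28 was 3886 bp upstream of it and 62 bp upstream of tasp-1, the gene that ends 109 bp before dpy-28 on the same strand. Its signal was 1832 (chrIII:10759069-10759447), rank 6 of 2143. The summit nearest to dpy-21 was 2265 bp upstream and had a signal of 648, rank 149 (chrV:17951296-17951598), and it lay 491 bp upstream of the divergent gene Y59A8B.24. For sdc-1 and sdc-2 the nearest summits were 65852 and 49265 bp away, the largest distances of the 10, and the one nearest to sdc-2 was inside lin-14, a heterochronic regulator.

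**Figure D3:**
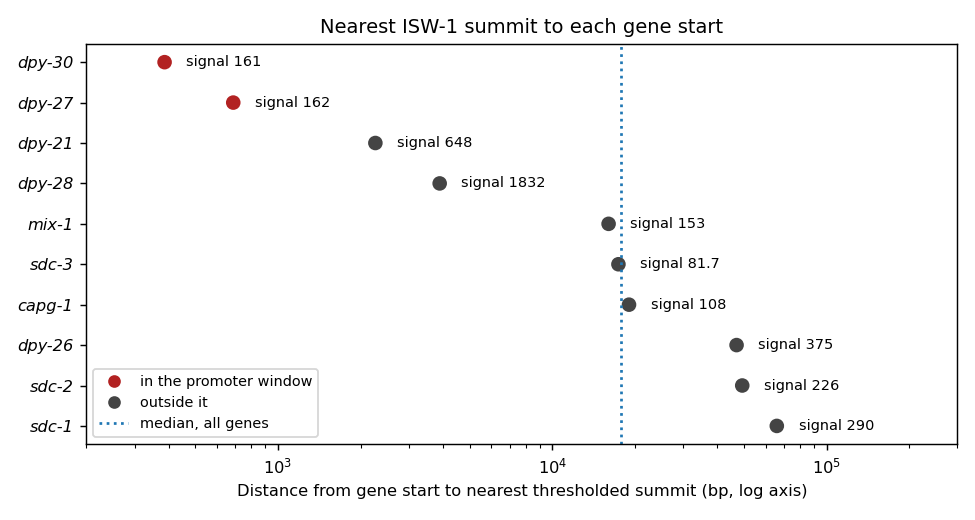
Distance in bp (log axis) from each gene's start to the nearest summit of the conservative list, with that peak's signal beside it; red points are inside the promoter window and the dotted line is the median of all protein-coding genes, 17737 bp. dpy-28 stands out with a signal of 1832 at 3886 bp, and sdc-1 lies farthest at 65852 bp.

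The sites differed in sequence. Both strands were searched within 150 bp of each summit, and each share is given for the 2143 conservative summits beside all promoters (250 bp upstream to 50 bp downstream of the 19973 starts). At dpy-30 the printed sequence holds TGCGTCTC once, centred 29 bp downstream of the summit, letters found at 17.97% of summits and in 3.319% of promoters. The dpy-27 site holds GAGAGA 3 times, as TCTCTC on the gene's strand, centred 9, 52 and 80 bp upstream of the summit. The weak sdc-2 site also holds it 3 times as TCTCTC, and the dpy-26 site once. GAGAGA, chosen after these sequences were seen, stood at 47.69% of summits and in 21.83% of promoters, and it is contained in GAGAGAGA, which was at 14.47% of summits and in 3.54% of promoters and at none of the complex's sites.

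Base composition differed as well. Within 100 bp of the summit the GC content was 50.2% at dpy-27, 46.3% at sdc-2 and 38.8% at dpy-30. It was 47.8% at the mix-1 intron summit, where those bases include part of an exon. Over all conservative peaks it was 43.95% ± 7.36 (SD, n = 2143). The flanks 400 to 600 bp away had 32.3% at dpy-27, 38.1% at sdc-2, 36.3% at the mix-1 intron and 39.6% at dpy-30, against a mean of 36.5% ± 5.63 over all conservative peaks (SD, n = 2143). On average the peaks were thus richer in GC at the summit than in the flanks. The weak sites at dpy-26 (40.8% at the summit, 34.1% in the flanks) and dpy-28 (41.8% and 29.6%) were richer at the summit too. The sites at dpy-30 and the start of mix-1 (36.8% in both) were not. The gene strand of dpy-27 was 30.35% purine and that of sdc-2 28.86%, which makes their other strands richer in purine than the 95th percentile of all peaks, 68.61%.

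The mix-1 intron holds GTTCGANNC once, centred 14 bp downstream of the summit and upstream of M106.6. These letters belong to the B box, an internal promoter element of tRNA genes, and were chosen after the sequence was seen; they stood at 4.573% of summits and in 1.587% of promoters. None of the 7 sites examined at the complex's genes (the 3 that passed and the weak ones at mix-1, sdc-2, dpy-26 and dpy-28) held GCGCGAAA, GGGCGG or GCGCAGGG, the last being the core of the motif at which the complex is recruited to X. Those were at 4.153%, 12.55% and 0.98% of summits and in 1.147%, 7.866% and 0.105% of promoters, in that order. A match is a description of letters and does not show a bound factor.

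Genes whose products work beside the complex were counted from lists by role. Of 46 matched genes, 19 (41.3%) had a promoter summit in the conservative list, against 10% of all protein-coding genes. The lists were chosen with earlier results of these data known, so the difference is a description and was not tested. Of the 19, 13 were in both replicates' own lists, a count given without the share of all genes. A higher signal than dpy-27 was found at 13 of the 19. Among all 1997 protein-coding genes with a summit, 68.9% had a signal at or above that of dpy-27, so this count does not set the 19 apart. Of the 19, 11 shared their summit with another protein-coding gene, which neither dpy-27 nor dpy-30 did in this window. Non-coding RNA genes were not counted as sharing. The window of R13G10.5 held the dpy-27 summit, 93 bp upstream of its start. That of ZK863.11 held the dpy-30 summit, 433 bp downstream of its start. The dpy-30 summit lay 1140 bp upstream of rnp-1, a little outside the 1000 bp that would have made it shared. Among all 1997 protein-coding genes with a summit, 41.1% had one that no other protein-coding gene shared. When each summit counted only for the protein-coding gene with the nearest start, 10 of the 46 genes kept one. The complex kept its 2 of 10, against 7% of all protein-coding genes. Non-coding starts were left out of this count. The start of R13G10.5 lies 93 bp from the dpy-27 summit, closer than that of dpy-27 at 687 bp. By list the nearest-start count left 1 of 4 in condensin, 1 of 9 in COMPASS and 3 of 12 in cohesin and its loader. It left 3 of 8 in H4 lysine 20 and X chromatin and 2 of 13 in sex determination.

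The condensin subunits that the dosage compensation complex does not use were counted first. Each list stands beside the 10% of all protein-coding genes, and 3 of 4 of these subunits had a summit. These were hcp-6 at a signal of 462, kle-2 at 401 and smc-4, the counterpart of dpy-27 in condensins I and II, at 189, each shared with a neighbour (let-630, C29E4.12 and F35G12.7), and capg-2 had none. All 3 were in both replicates' thresholded lists, which dpy-27 was not. Of the COMPASS genes, whose products work with DPY-30, 4 of 9 had a summit. The methyltransferase genes set-16 (signal 1199, shared with drr-2) and set-2 (276, unshared) and the core subunit gene ash-2 (492, shared with Y17G7B.20) were in both replicates. rbbp-5, at 108, was in replicate 1 but not in replicate 2.

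Cohesin and its loader had 6 of 12. The highest were wapl-1 (956), which encodes the cohesin release factor, scc-1 (331, shared with rpn-5), smc-3 (301, shared with mib-1 and gly-9) and evl-14 (178, shared with dcn-1). The wapl-1 summit was shared with htz-1, the histone H2A.Z gene. The genes acting on histone H4 lysine 20 and X chromatin had 4 of 8. They were htz-1, set-4 (518, unshared), the H4 lysine 20 methyltransferase gene whose mark DPY-21 trims, mys-1 (146) and sir-2.1 (135), of which mys-1 and sir-2.1 were not in replicate 2's thresholded list.

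The genes that count X chromosomes and set sex upstream of the complex had 2 of 13, the lowest share of the related lists when shared summits counted for every gene; by nearest start alone COMPASS was lower. They were ceh-39 (205, chromosome X), an X signal element, and fem-2 (108), and only ceh-39 was in both replicates. xol-1, the switch gene that keeps SDC-2 off in males, and the X signal elements sex-1 and fox-1 had no promoter peak even in the conservative ranked list. The same was true of her-1, the direct autosomal target that SDC proteins repress, of tra-1, tra-2 and tra-3, and of fem-1, fem-3, sea-1 and sea-2.

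**Figure D4:**
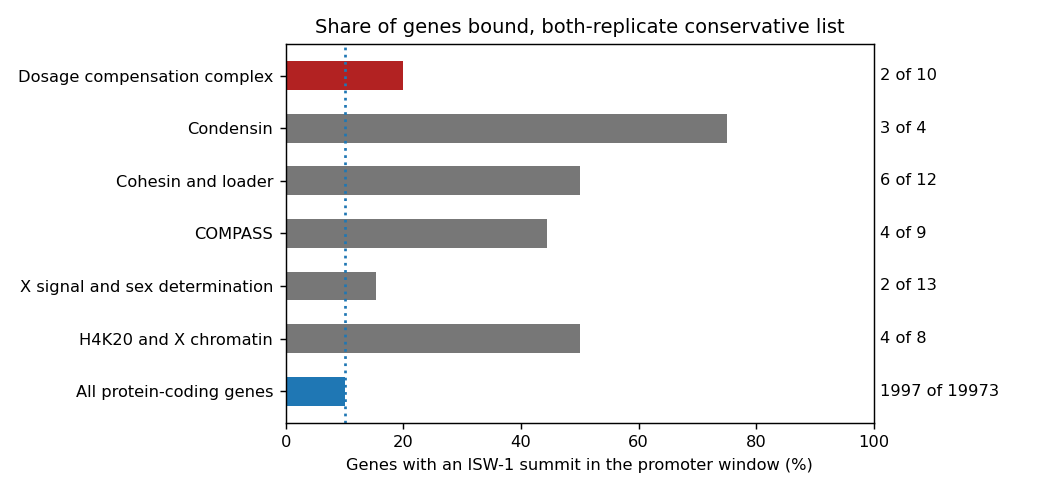
Percentage of genes with a summit of the conservative list in the promoter window, for the dosage compensation complex (red), the related lists (grey) and all protein-coding genes (blue, repeated as the dotted line at 10%). The complex, at 20%, and the sex determination list, at 15.4%, stand nearest to all genes. Condensin has 3 of 4, which becomes 1 of 4 when a summit counts only for the nearest protein-coding start.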

How the data were processed

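ISW-1 ChIP-seq was made from 2 biological replicates of whole L1 larvae. The authors deposited 8 peak lists on ce11. The signal deposited with each peak is the authors' own enrichment value, and −log10 of the global IDR was deposited with the ranked peaks. Neither the aligner, the peak caller nor the control is given in the sources used here. The joint ranked lists have 16 more columns of values whose replicate is not named, and these were left out. Which ranked list lies behind the conservative one was read from identical intervals. Depth is unknown.

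Summits were assigned to gene models of Ensembl release 115 (WBcel235, which is ce11) in Python 3.11.15 with pandas 2.3.3 and numpy 2.4.6, and sequences came from the RefSeq genome of that build. Assignment was tested on simulated summits. The promoter window was 1000 bp upstream to 500 bp downstream of the outermost start. The genes named were all 10 genes of the complex, any gene sharing a counted summit with one, and the bound genes of each related list, up to 4 by signal; genes without a summit and the neighbours at the nearest summits were named after their values were seen. The 10 genes, the lists and most sequences searched were chosen with earlier results of these data known, and no list was tested. Of the listed symbols, pqn-85 and sex-2 matched no gene name. Alternatives changed the list, the window, the start used, the overlap rule and the replicate.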

Additional observations from a re-analysis of the deposited data

How the results depend on the processing

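The share of all protein-coding genes under each setting is given in brackets. The count of 2 complex genes with a promoter summit fell to 0 among the 1072 peaks of higher signal (6.02%). It fell to 1 (dpy-30) with a window of 500 bp upstream and 200 bp downstream (8.06%), and was 6 in the full ranked list (24.5%). Using 1 replicate at a time it was 1 without replicate 1 (8.6%), where dpy-27 was lost, and 2 without replicate 2 (9.82%). It stayed at 2 with the other thresholded list (10.2%), a wider window (12.9%) and any transcript start (10.5%). The nearest protein-coding start only (7%) and peak overlap of at least 1 bp (10.5%) also left it at 2. The inside count of 1 (mix-1) was 0 among the peaks of higher signal. No complex gene shared its summit with another protein-coding gene, but 1 did with a window of 2000 bp upstream and 1000 bp downstream and 1 by peak overlap. The 19 related genes became 11 among the peaks of higher signal and 10 with the nearest protein-coding start only. The causes were not tested. No paired analysis was possible because there is 1 condition.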

Other observations

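GCGCAGGG, the core of the motif at which the dosage compensation complex is recruited to X, was absent from the complex's own gene sites. Only 21 of all 2143 conservative summits (0.98%) held it within 150 bp, so its absence does not set those sites apart. The summits with GCGCAGGG were mostly on X. In the conservative list 16 of 295 X summits (5.42%) held it on either strand, against 5 of 1848 autosomal summits (0.271%). Replicate 1 had it at 17 of 291 X summits and 5 of 1799 autosomal ones, and replicate 2 at 16 of 239 X summits and 4 of 1517 autosomal ones. The sequence itself occurs 4.57 times per Mb of X and 2.82 times per Mb of the autosomes.

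All 16 X peaks overlapped a thresholded peak of each replicate. The share over all X peaks is not given here, so this count does not set the 16 apart. The median signal of the 16 was 469, against 164 over all X peaks, and 7 of them were among the 20 highest on X. In 12 the motif was centred within 50 bp of the summit. Only 3 of the 16 lay in a promoter window, against 145 of the 295 X summits (49.2%). The highest (chrX:11093994-11094360, signal 713, rank 4 on X) had its summit 3985 bp downstream of the start of W02H3.3. Another (chrX:8036253-8036668, signal 621) held the motif 2 bp from its summit, 4876 bp upstream of the start of xol-1. No test was made of this difference between X and the autosomes, which was noticed in these data, and its cause was not tested.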
